A study of Mus musculus with 6 samples.

Results

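The Wnt ligands are a family of secreted signalling proteins. They were followed here in mouse C2C12 myoblasts, an established line whose confluent cells fuse into myotubes when serum is reduced. Members were chosen by gene symbol from a list of 10 ligands, and 8 of them had a row among the 16854 genes of the deposited table: Wnt2b, Wnt4, Wnt5b, Wnt6, Wnt9a, Wnt10a, Wnt10b and Wnt11. Wnt2 and Wnt5a of that list were not analysed here, and neither were Wnt1, Wnt3, Wnt3a, Wnt7a, Wnt7b, Wnt8a, Wnt8b and Wnt9b. The libraries were 3 from cells with a stably expressed short hairpin RNA against Adamtsl2 (knockdown) and 3 from cells with a scrambled hairpin (control), all collected on day 3 in medium with 2% horse serum. Both groups carried a hairpin and differed in its target, and nothing in the labels says whether either was 1 clone or a pool. Nothing in them says that the libraries of a group came from separate cultures either, so p-values measure the spread between these libraries. The title of the series places the comparison in Wnt signalling during myogenesis.

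Wnt proteins carry a lipid that the membrane acyltransferase Porcn attaches, and the transport protein Wls takes them to the cell surface. Outside the cell they bind Frizzled receptors. With the co-receptors Lrp5 and Lrp6 this stabilises beta-catenin, which acts with TCF/LEF factors on target genes such as Axin2. Other ligand and receptor pairs, many with Ror or Ryk, act without beta-catenin through small GTPases, kinases and calcium. Secreted antagonists such as the Sfrp proteins bind ligands before they reach a receptor. In skeletal muscle, Wnt signals take part in specifying the myogenic lineage in the embryo and in the differentiation of myoblasts.

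Reads assigned to genes totalled 39913603 to 49367857 per knockdown library and 37346439 to 50329438 per control library. Adamtsl2 itself had normalised counts of 23.2, 21.7 and 7.83 in knockdown libraries 1 to 3, against 1325, 1266 and 1307 in control libraries 1 to 3. The third knockdown library stood apart. Its log2 values correlated across genes at 0.917 and 0.920 with the other knockdown libraries, against 0.996 between those libraries and 0.993 to 0.995 among controls. The nuclear RNA Malat1 took 2.83% of its reads, against 0.302 to 0.515% in the other 5 libraries. Results that rest on it are therefore also given without it.

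The ligand RNA changed in both directions. Wnt10a, Wnt6, Wnt11 and Wnt9a were lower in knockdown cells and Wnt5b was higher, by limma on log2(normalised count + 1) with Benjamini-Hochberg adjustment over all 16245 genes tested at 0.05. Wnt4, Wnt10b and Wnt2b did not pass. The 5 ligands called are 62.5% of the 8, and 45.2% of all genes tested were called (21.7% higher and 23.5% lower). The median absolute log2 change was 2.45 over the 8 ligands and 0.757 over all genes tested. The signed medians were -0.54 and 0.00. Without the third knockdown library 7 ligands passed, 3 higher and 4 lower, where 78.5% of all genes did (38.6% higher and 39.9% lower). All 8 ligands met the filter of a normalised count of at least 10 in at least 3 libraries. But Wnt6 and Wnt11 reached that value in 0 and 1 knockdown libraries. Their entry into the test thus rests on the control libraries, where they are high. Both are among the 4 ligands called lower, so the counts and medians over the 8 partly follow from the filter. With 3 against 3 libraries, an exact two-sided permutation test of a single gene cannot go below p = 0.1. The exact test gave p = 0.1 for each of the 6 ligands whose groups did not overlap, 2 of them higher in the knockdown and 4 lower. Groups did not overlap for 62.6% of all genes tested either, 30.0% higher and 32.7% lower.

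**Figure D1:**
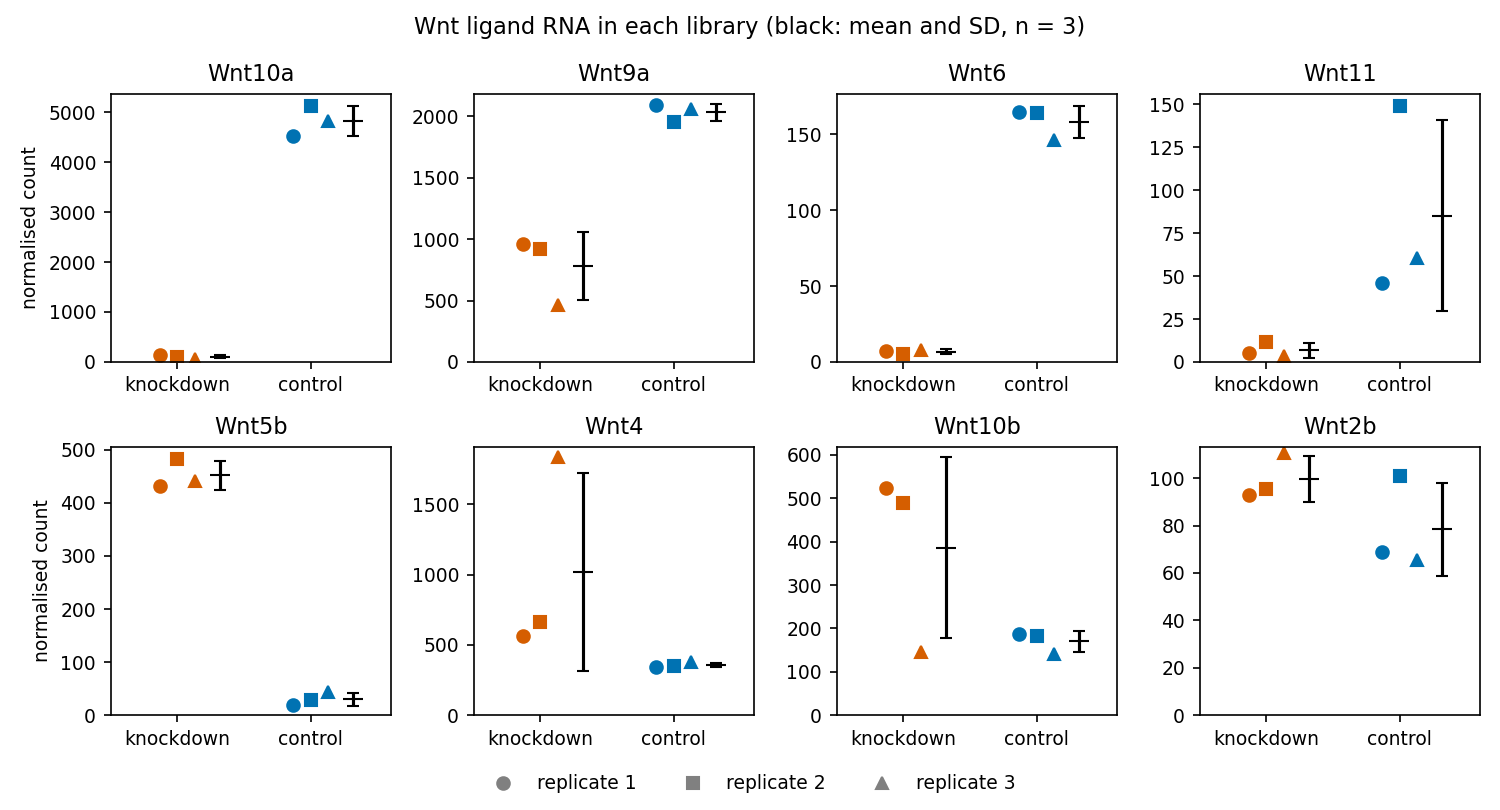
Normalised count (y axis, linear, from 0) of each ligand in the 3 knockdown and 3 control libraries. Coloured markers are single libraries and black bars are the mean and SD. Knockdown and control points are apart for Wnt10a, Wnt9a, Wnt6, Wnt11, Wnt5b and Wnt4, and overlap for Wnt10b and Wnt2b.

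Wnt10a, a ligand that signals through beta-catenin and is known for its part in tooth, skin and hair development, had the largest change of the 8. Its normalised counts were 129, 103 and 68.2 in knockdown libraries 1 to 3, against 4528, 5120.5 and 4819 in control libraries 1 to 3. Every knockdown library lay far below every control library. The means were 100.1 ± 30.7 in the knockdown and 4823 ± 296 in control (SD, n = 3 each), 48.2-fold lower in the knockdown, with a log2 change of -5.62 ± 0.25 (SE) and an adjusted p of 2.8e-05 (limma). Leaving out each library in turn gave log2 changes of -5.83 to -5.37.

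Wnt6, which in chick and mouse embryos acts from the ectoderm on the somites, had 7.46, 5.02 and 7.83 normalised counts in knockdown libraries, against 165, 164 and 146 in control libraries. These were 22 reads over the 3 knockdown libraries and 435 over the 3 controls, 23.6-fold lower in the knockdown after scaling, with an exact 95% binomial counting interval of 15.4 to 38.0, which covers counting error only. The groups did not overlap. Its log2 change was -4.38 ± 0.26, with an adjusted p of 7.5e-05 (limma), and ranged from -4.48 to -4.20 with 1 library left out.

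Wnt6 and Wnt10a are neighbours on chromosome 1, on the plus strand and 6.19 kb apart (GENCODE M21, GRCm38: Wnt6 from 74771892 to 74785322, Wnt10a from 74791516 to 74804179). They fell to different extents. Per kb of exon, the Wnt10a level was 7.74 to 18.2 times that of Wnt6 in knockdown libraries and 24.4 to 29.3 times in control libraries. The nearest other protein-coding genes tested were also lower. Prkag3, a muscle subunit of the AMP-activated kinase 22.7 kb from Wnt6, had 17.4, 20.9 and 77.1 normalised counts in the knockdown, against 9532, 9297 and 9650.1 in control, a log2 change of -8.23 ± 0.55 (adjusted p = 1.1e-04, limma). Ihh, a hedgehog ligand 141 kb from Wnt10a, had 8.29, 11.7 and 10.1 against 26.2, 24.0 and 19.0 (log2 -1.13 ± 0.30, adjusted p = 0.025, limma). Of the 14 nearest neighbours of the 8 ligands that are no Wnt genes themselves, picked by position, 3 were lower (the third is Arf1, next to Wnt9a) and 0 were higher by limma, which at an adjusted p under 0.05 called 45.2% of all genes. With all 6 libraries, edgeR's quasi-likelihood test called 0 of these neighbours higher and DESeq2 called 1, and 0 were higher at an unadjusted p under 0.05 in limma. Without the third knockdown library, limma called 7 of the 14 higher and 6 lower, where it called 78.5% of all genes, so the count of 0 higher rests on that library.

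Wnt11, a ligand that acts mainly without beta-catenin and guides cell movements in gastrulation, was low and variable. It had 4.97, 11.7 and 3.35 normalised counts in knockdown libraries, against 45.8, 149 and 60.8 in control libraries. The second control library was higher than the other controls, and every knockdown value still lay below the lowest control. These were 23 reads over the knockdown libraries and 224 over the controls, 11.6-fold lower in the knockdown after scaling, with a counting interval of 7.55 to 18.7. The log2 change was -3.45 ± 0.60, with an adjusted p of 0.0050 (limma), and ranged from -3.89 to -2.96 with 1 library left out. In the annotation, 364 bases of its exons lie opposite a processed pseudogene, Gm8398. Without a stated strand setting, reads of that stretch cannot be assigned to a strand.

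Wnt9a, known in mouse for its part in joint formation, fell less. It had 960.0, 918 and 464 normalised counts in knockdown libraries 1 to 3, against 2089.8, 1955 and 2057 in control libraries. The third knockdown library was the lowest, and all 3 lay below the controls. The fall was 2.61-fold by the means, 781 ± 275 and 2034 ± 70.2 (SD, n = 3 each), with a log2 change of -1.45 ± 0.29 and an adjusted p of 0.0088 (limma). Without the third knockdown library the log2 change was -1.11 ± 0.06.

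Wnt5b is a ligand best known for signalling without beta-catenin, in cartilage and fat cell differentiation. It was the ligand of the 8 that limma called higher over 6 libraries. It had 432, 483 and 442 normalised counts in knockdown libraries, against 19.6, 27.8 and 43.7 in control libraries. The knockdown libraries lay close together, the third included, and the groups were far apart. The means were 452 ± 26.9 and 30.4 ± 12.3 (SD, n = 3 each), 14.9-fold higher in the knockdown. Its log2 change was 3.92 ± 0.31, with an adjusted p of 2.1e-04 (limma), and ranged from 3.66 to 4.22 with 1 library left out.

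Wnt4, known for kidney and female reproductive tract development and, in mouse muscle, as a signal from the fibre to satellite cells, had 562, 663 and 1834 normalised counts in knockdown libraries, against 342, 352 and 375 in control libraries. All 3 knockdown values were above the controls, and the third was 2.99 times the mean of the first and second. That spread is in the log2 change of 1.30 ± 0.45, which did not pass (adjusted p = 0.057, limma), with a 95% interval of 0.21 to 2.40 for this gene alone. Without the third library the log2 change was smaller but passed, at 0.78 ± 0.10 (adjusted p = 3.5e-05, limma). The edgeR quasi-likelihood test on all 6 libraries gave 1.55 (adjusted p = 0.042). In the authors' deposited table Wnt4 has a log2 fold change of 1.52 and an adjusted p of 0.0063.

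Wnt10b, a ligand that acts through beta-catenin and is known in mouse to favour myogenesis over fat cell formation, was split between the knockdown libraries. It had 525, 489 and 145 normalised counts in knockdown libraries 1 to 3, against 186, 182 and 142 in control libraries. The first and second knockdown libraries were well above the controls, whereas the third lay within the control range. The log2 change over 6 libraries was 0.98 ± 0.51 (95% interval -0.27 to 2.24, adjusted p = 0.17, limma). Without the third library it was 1.58 ± 0.13 (adjusted p = 1.8e-06, limma). The authors' deposited table gives 1.19 with an adjusted p of 0.045. The direction of Wnt10a and Wnt10b, which are close relatives within the family, was thus opposite in knockdown libraries 1 and 2.

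Wnt2b, known for its role at the margin of the developing retina, had 92.9, 95.4 and 111 normalised counts in knockdown libraries, against 68.6, 101 and 65.6 in control libraries. The groups overlapped. A difference was not detectable, with a log2 change of 0.36 ± 0.24, a 95% interval of -0.22 to 0.95 and an adjusted p of 0.26 (limma); without the third knockdown library the log2 change was 0.29 (adjusted p = 0.23).

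**Figure D2:**
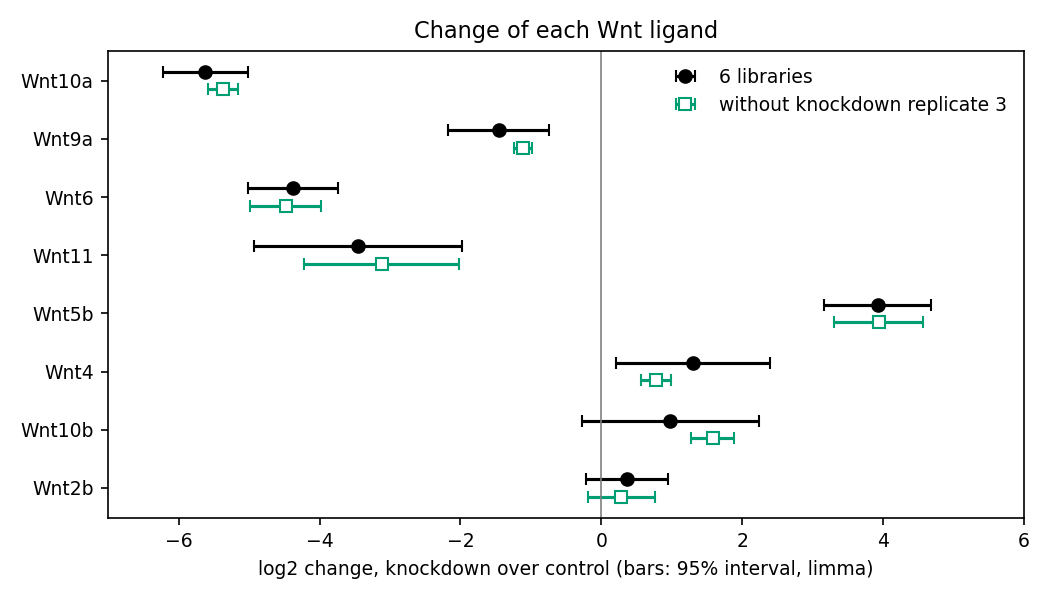
Log2 change of each ligand, knockdown over control (x axis), with its 95% interval from limma, over 6 libraries (filled circles) and without the third knockdown library (open squares). Wnt10a, Wnt6, Wnt11 and Wnt9a lie below 0 and Wnt5b above 0 either way, while the intervals of Wnt4 and Wnt10b narrow and lie above 0 without that library.

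The other ligands lie apart in the genome (GENCODE M21, GRCm38). Wnt2b is on chromosome 3 from 104945272 to 104961921 (minus strand), Wnt4 on chromosome 4 from 137277489 to 137299726 (plus), and Wnt5b on chromosome 6 from 119432531 to 119544347 (minus). Wnt11 is on chromosome 7 from 98835112 to 98855195 (plus). Wnt9a, on chromosome 11 from 59306928 to 59333552 (plus), lies 16.2 kb from Wnt3a, and Wnt10b, on chromosome 15 from 98770712 to 98778150 (minus), lies 11.7 kb from Wnt1.

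Wnt16, a ligand of the family outside the list and known for its role in bone, was found in the table as well. It had 47, 28 and 37 reads in knockdown libraries, against 1, 0 and 3 reads in control libraries. The ratio of reads was 23.5 after scaling, with a counting interval of 8.91 to 87.6. It met the filter through the knockdown libraries alone, and in those it had 38.97, 23.4 and 41.4 normalised counts.

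Levels of different ligands were compared per kb of exon, as normalised counts per kb. In knockdown cells the mean levels were 243 ± 169 for Wnt4, 234 ± 82.6 for Wnt9a, 170.3 ± 10.1 for Wnt5b and 114 ± 61.6 for Wnt10b (SD, n = 3 each). They were followed by Wnt10a at 40.6 ± 12.4, Wnt2b at 23.7 ± 2.30, Wnt6 at 3.09 ± 0.70 and Wnt11 at 1.61 ± 1.07. In control cells the order was Wnt10a at 1954 ± 120.0, Wnt9a at 611 ± 21.1, Wnt4 at 85.0 ± 4.05, Wnt6 at 72.2 ± 4.75 and Wnt10b at 49.96 ± 7.25, with Wnt11, Wnt2b and Wnt5b at 20.6 ± 13.5, 18.7 ± 4.68 and 11.4 ± 4.62. In knockdown cells the libraries of Wnt4 and Wnt9a overlapped, as did those of Wnt9a and Wnt5b, of Wnt10b and Wnt10a, and of Wnt6 and Wnt11. Ligands further apart in the order overlapped too: Wnt4 with Wnt5b and with Wnt10b, and Wnt9a with Wnt10b. In control cells each ligand was separated from the next one down to Wnt10b, and the libraries of Wnt11, Wnt2b and Wnt5b overlapped from one ligand to the next. By the means, Wnt5b was the third of the 8 in knockdown cells and the lowest in control cells. Without the third knockdown library the leading ligands were Wnt9a at 282, Wnt5b at 172, Wnt10b at 149 and Wnt4 at 146.

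**Figure D3:**
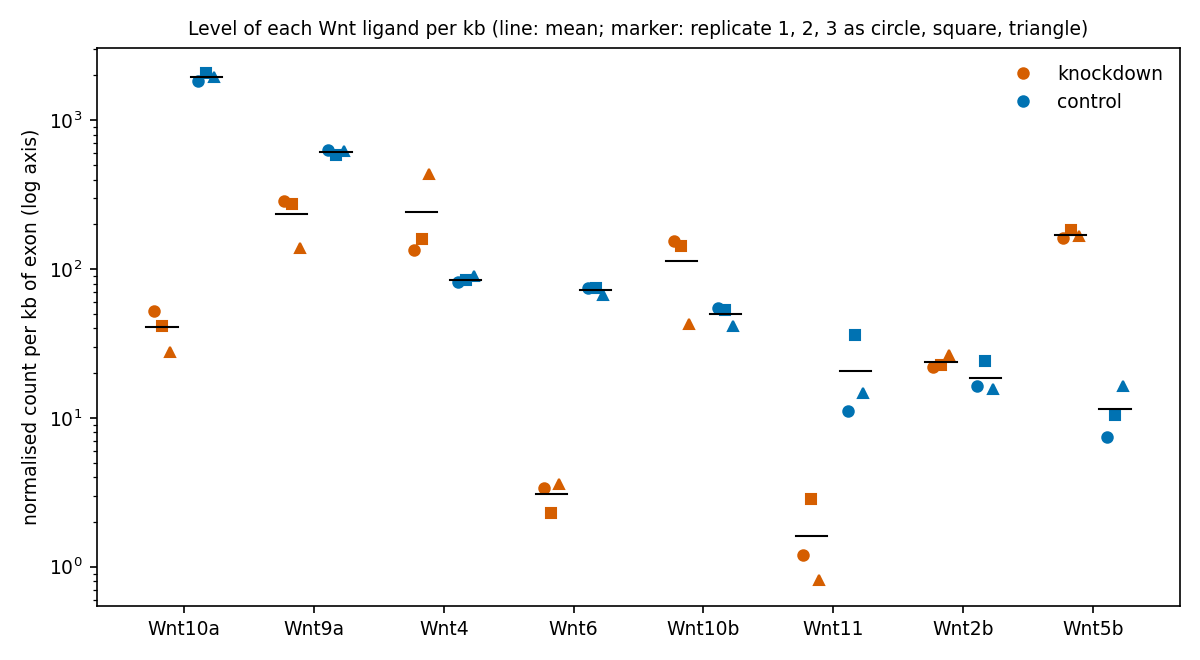
Normalised count per kb of exon (y axis, log scale) of the 8 ligands, ordered by their control mean, in knockdown (orange, left of each pair) and control (blue) libraries. Horizontal lines are means over 3 libraries. Wnt10a has a mean of 40.6 in the knockdown, below 4 other ligands, and leads in control at 1954.

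Summed over the 8 ligands, the level per kb was 818.6 to 844 in knockdown libraries and 2709 to 2945 in control libraries, 3.40-fold lower in the knockdown by the means (3.43-fold without the third library). Nearly all of that net fall was in Wnt10a. Without it the sum was 766, 787 and 817 in knockdown libraries 1 to 3, against 874, 870.3 and 863 in control libraries, 1.10-fold lower in the knockdown. That remainder nets opposite changes. By the means, Wnt9a (234 in knockdown, 611 in control), Wnt6 and Wnt11 were lower. Wnt5b (170.3 and 11.4), Wnt4 (243 and 85.0), Wnt10b and Wnt2b were higher by the means. Wnt10a made up 4.90 ± 1.57% of the summed level in knockdown cells and 69.2 ± 1.37% in control cells (SD, n = 3 each). Wnt5b made up 20.5 ± 1.24% and 0.404 ± 0.16%, Wnt4 29.1 ± 19.7% and 3.01 ± 0.16%, and Wnt10b 13.8 ± 7.57% and 1.77 ± 0.27%. Wnt9a held 28.3 ± 10.3% in the knockdown and 21.7 ± 1.63% in control. The third knockdown library had a sum like the other knockdown libraries but a different make-up, with Wnt4 at 51.8% of it and Wnt10b at 5.06%. These sums describe RNA of the ligands analysed here and leave out Wnt2, Wnt5a and the others named above.

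**Figure D4:**
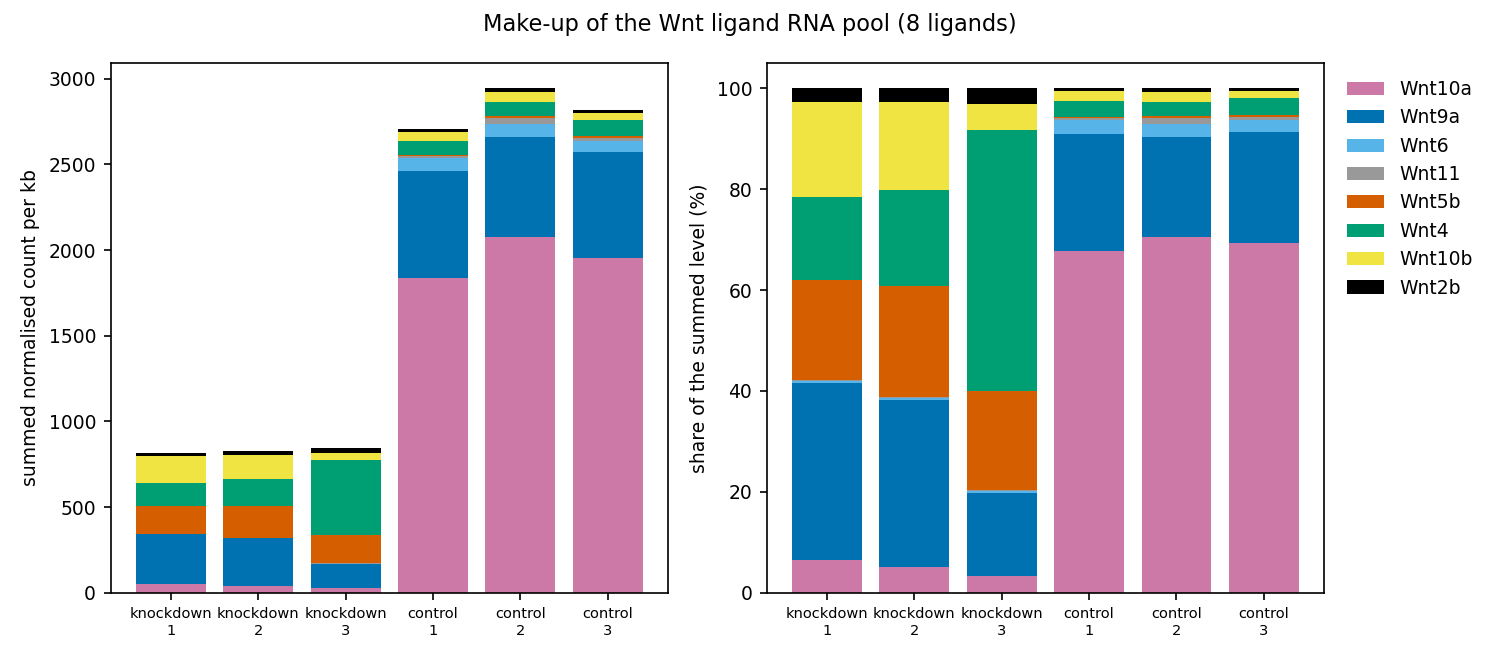
Make-up of the summed level of the 8 ligands in each library, as normalised counts per kb (left) and as a share in % (right), knockdown libraries left of control libraries. The Wnt10a segment falls to 4.90% of the pool in knockdown cells, against 69.2% in control cells.

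The genes whose pattern was most like that of Wnt10a, by Pearson's r of log2(normalised count + 1) over the 6 libraries, were Myh7 (r = 0.99985), H19 (r = 0.99977) and Sox8 (r = 0.99975). Myh7 is the slow myosin heavy chain, H19 an imprinted noncoding RNA and Sox8 a transcription factor. They were picked from 11831 genes whose mean normalised count reached 100. The 6 libraries form 2 separate groups, so these values mostly restate the difference between groups, and they are given as a description. Means were 78.3 ± 30.7 in the knockdown and 16737 ± 957 in control for Myh7, 14099 ± 3168 and 216128 ± 1234 for H19, and 202 ± 39.5 and 2755 ± 59.2 for Sox8 (SD, n = 3 each).

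Marker genes of muscle and of other cell types also differed between the groups. Counts are of markers at an adjusted p under 0.05 (limma, 6 libraries). By the same test 21.7% of all genes were higher and 23.5% lower. All 12 myotube markers listed were lower, with a summed normalised count of 8305 to 9532 in knockdown libraries and 1369357 to 1386681 in control libraries. Of 7 myoblast markers, 2 were higher and 5 lower, with sums of 20318 to 23340.4 and 82421 to 83095. Of 8 mesenchymal progenitor markers tested out of 9 listed, 5 were higher and 1 lower, with sums of 131809 to 209170.3 and 8614 to 8859. The smooth muscle and pericyte list had 2 higher and 3 lower of its 7 markers (sums of 99898 to 113696 and 244996 to 278009.8). Its median log2 change was 0.57, opposite in direction to the sums, which the most abundant markers of a list lead. Adipocyte markers were higher in 2 of 3 tested of 6 listed (8853 to 16092 and 3599.7 to 3701), and osteochondral markers in 3 of 4 tested of 8 listed (4517 to 9089.6 and 2603 to 3001). Adipoq, Fabp4 and Plin1 of the adipocyte list were not analysed here, nor were Sp7, Bglap, Ibsp and Acan of the osteochondral list. Of the 5 endothelial markers listed, Cdh5, Kdr and Emcn were not analysed here and Pecam1 missed the filter, while Tek was higher. The sum of Pecam1 and Tek was 18.2 to 90.5 in knockdown libraries and 6.32 to 6.65 in control libraries. Tek thus entered the test through the knockdown libraries, where it is high, and its call partly follows from the filter. For the other marker lists such entry through a single group was not counted, so their counts may partly follow from the filter too. Of the 5 macrophage markers, Ptprc and Adgre1 were not analysed here and Lyz2 was higher, with sums of 106 to 187 and 73.0 to 110.2. Without the third knockdown library 6 mesenchymal progenitor markers were higher and 1 lower. The smooth muscle and pericyte list then had 3 higher and 3 lower, and the macrophage list 1 and 1. All 3 adipocyte and all 4 osteochondral markers tested were higher in that fit, and the other lists kept their counts. In that fit 38.6% of all genes were higher and 39.9% lower. No marker analysed was at 0 in all 6 libraries. Their part in the ligand results was not tested. In these bulk samples, fewer cells of a type and less RNA per cell cannot be told apart.

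Of 104 tested genes in 6 other lists of the pathway, 34 were higher and 31 lower, together 62.5%. Of all genes tested, 45.2% were called (21.7% higher and 23.5% lower). Without the third knockdown library 54 were higher and 37 lower, together 87.5%, against 78.5% of all genes in that fit (38.6% higher and 39.9% lower). Of the 104, 11 reached a normalised count of 10 in all 3 libraries of one group and in at most 1 of the other, so they entered the test through the group where they are high; among the other 93, 31 were higher and 25 lower. The lists were chosen with earlier results of these data known. Their counts are to be read beside these shares over all genes, and their medians beside the median over all genes tested, which was 0.00.

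Among 13 genes of Wnt lipidation, secretion and extracellular handling, 4 were higher and 5 lower (median log2 change -0.05), or 5 and 6 without the third knockdown library. Porcn, which attaches the lipid, had 1720.3, 1663 and 1355 normalised counts in knockdown libraries, against 3295, 3244 and 3386 in control libraries (log2 -1.07 ± 0.13, adjusted p = 0.0011, limma). Wls, the carrier, had 22933, 23950.5 and 22438 against 12105, 12675 and 12333 (log2 0.90 ± 0.12, adjusted p = 0.0016, limma). The groups of Porcn did not overlap, nor did those of Wls. The glypican Gpc6 rose by 2.09 ± 0.19 and the retromer subunit Vps35 rose by 1.23 ± 0.14 on the log2 scale. The desaturase Scd2 and the retromer subunit Vps29 fell, with log2 changes of -1.64 ± 0.26 and -0.55 ± 0.12.

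Of 8 secreted modulators tested (15 listed), 6 were higher and 1 was lower, with a median log2 change of 4.74, where 21.7% of all genes tested were higher. Frzb, Rspo2 and Rspo3 entered the test through the knockdown libraries, where they are high, so the count and the median partly follow from the filter. Of the other 5, 4 were higher and 1 lower. Over all 8 modulators the counts were also 6 higher and 1 lower without the third knockdown library. The antagonist Sfrp2 had 33257, 31605 and 20989 normalised counts in knockdown libraries, against 196, 255 and 208 in control libraries. That is a log2 change of 6.998 ± 0.22 (adjusted p = 9.3e-06, limma). Sfrp4 rose by 7.37 ± 0.38, and Rspo2, an agonist that keeps receptors at the surface, also rose. It had 661 reads over the knockdown libraries and 7 over the controls, 79.1-fold higher in the knockdown after scaling (counting interval 38.2 to 197.6). Dkk3, a divergent member of the Dickkopf family, fell, with 30.7, 20.1 and 13.4 normalised counts in the knockdown, against 408, 394 and 433 in control.

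Of 21 receptors and co-receptors tested, 4 were higher and 8 lower (median -0.48), or 8 and 9 without that library. Fzd4, a Frizzled receptor that also binds norrin, rose by 2.73 ± 0.33, and Ror1, a receptor for ligands of the Wnt5 kind, by 3.16 ± 0.32. Ror1 had 799, 826 and 395 normalised counts in knockdown libraries, against 62.1, 78.3 and 72.2 in control libraries. Lrp6 rose by 1.24 ± 0.11. The R-spondin receptor Lgr6 fell, with a log2 change of -3.96 ± 0.27. Fzd9 and Fzd3 were also called lower, but with Kremen2 they entered the test through the control libraries, where they are high. Fzd9 had 27 reads over the knockdown libraries and 2621 over the controls, 116-fold lower in the knockdown after scaling (counting interval 79.4 to 176). Fzd3 had 12 and 353 reads, 35.1-fold lower (19.8 to 68.6). Without these 3 genes, 4 receptors were higher and 5 lower of 18.

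Of 19 genes of beta-catenin transduction, 9 were higher and 1 was lower (median 0.16), or 14 and 3 without that library. Over all genes tested, 21.7% were higher and 23.5% lower, or 38.6% and 39.9% without that library. Tcf7l1, a TCF factor that mainly represses, rose by 1.47 ± 0.15, the corepressor Tle1 by 1.25 ± 0.16 and the coactivator Bcl9l by 1.05 ± 0.14. The kinase Csnk1a1, part of the destruction complex, fell by 1.11 ± 0.13 on the log2 scale. Ctnnb1 had 22967, 22287 and 3360.4 normalised counts in knockdown libraries, against 19244, 21026 and 18969 in control libraries. It was not called over 6 libraries (log2 -0.72 ± 0.76, adjusted p = 0.48, limma). Without the third knockdown library it was called higher (log2 0.20, adjusted p = 0.0085, limma), so its sign depends on that library.

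Of 16 beta-catenin targets and feedback genes tested, 5 were higher and 7 lower (median -0.19), or 7 and 7 without that library. Axin2 had 495, 443 and 269 normalised counts in the knockdown, against 368, 486 and 436 in control. Its groups overlapped, and it did not pass (log2 -0.13 ± 0.27, adjusted p = 0.71, limma). Bmp4, Wisp2 and the Dishevelled-binding Nkd2 rose by 5.30 ± 0.32, 3.53 ± 0.14 and 1.41 ± 0.19. The activin antagonist Fst, Lef1 and Wisp1 fell, with log2 changes of -2.77 ± 0.24, -2.43 ± 0.47 and -1.405 ± 0.12. Dact1, another Dishevelled-binding protein, was called lower with 16 reads over the knockdown libraries and 520 over the controls (38.8-fold lower, counting interval 23.7 to 68.4). It and Tnfrsf19 entered the test through the control libraries, and without them 5 genes were higher and 5 lower of 14.

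Of 27 genes of signalling without beta-catenin, 6 were higher and 9 lower (median 0.05), or 14 and 11 without that library. The phospholipase Plcb1 rose by 3.15 ± 0.13 and the calcium-responsive factor Nfatc4 by 1.81 ± 0.13. The calcium-dependent kinases Camk2a and Camk2b fell, with log2 changes of -6.07 ± 0.13 and -4.01 ± 0.16; Camk2a had 177, 141 and 169 normalised counts in knockdown libraries, against 11211, 10932 and 10607 in control libraries. The polarity gene Prickle1 fell by 4.68 ± 0.26, and Prickle2 rose, with 979, 919 and 492 normalised counts in the knockdown, against 0, 1.26 and 1.90 in control. These are 3 control reads in all and a 759.7-fold higher level in the knockdown (counting interval 259.7 to 3686). Prickle2 and Celsr1 entered the test through the knockdown libraries and Nfatc2 through the controls, and without these 3 genes 5 were higher and 8 lower of 24.

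**Figure D5:**
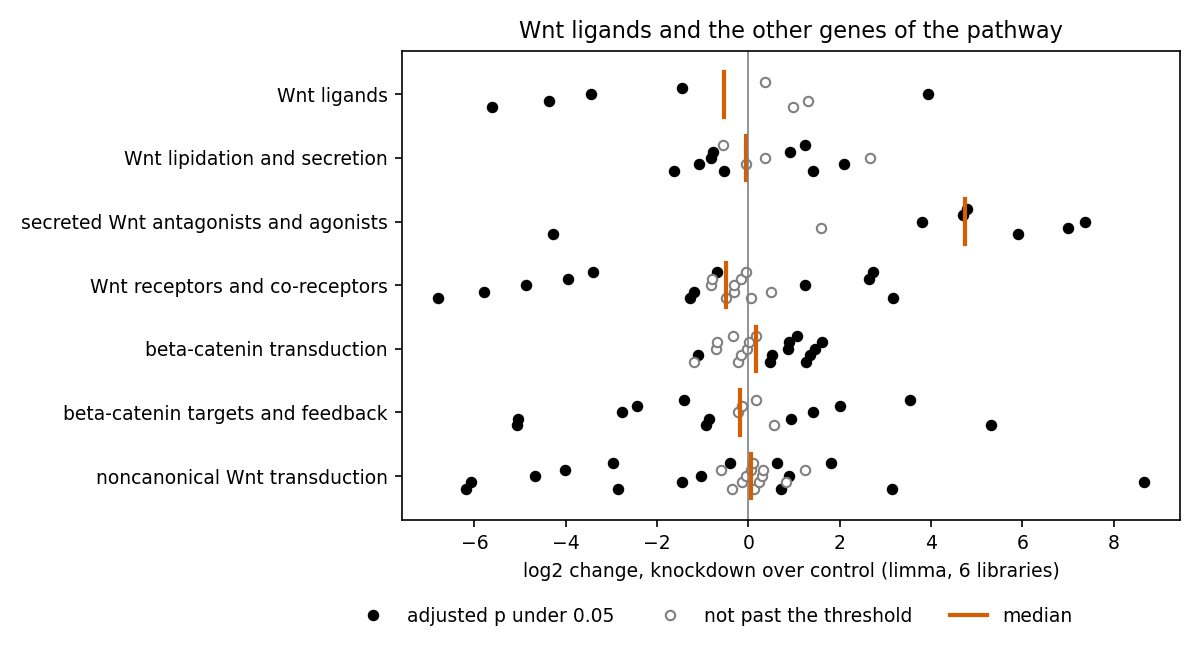
Log2 change, knockdown over control (x axis), of the Wnt ligands and of the other pathway genes by list. Filled points passed an adjusted p of 0.05 (limma, 6 libraries), open points did not, and orange bars are list medians. Of the 8 secreted modulators, 6 are filled on the right, 2 of which entered the test through the knockdown libraries. The ligands lie on both sides. Their median of -0.54 includes Wnt6 and Wnt11, which entered through the control libraries.

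RefSeq promoter windows (GRCm38.p6, from 250 bases before to 50 after a gene's start) were matched by symbol for 7 of the 8 ligands, 10 windows in all, with 3 for Wnt5b and 2 for Wnt11; there was 1 ligand, Wnt10a, with no window used. They were searched on both strands for the E-box CAGCTG, which myogenic factors bind, and for the TCF/LEF core CTTTGAT, which do not overlap in these windows. CAGCTG was in 1 of the 10 windows and in 16.3% of all 32851 windows of the table, and CTTTGAT in 2 of the 10 and in 3.73% of all. The looser E-box CANNTG was in 8 of the 10 and in 72.3% of all. The windows below are those with a match, plus Wnt6, which fell with its neighbour Wnt10a. The outermost start of Wnt5b, the ligand that limma called higher over 6 libraries, is also shown. Capitals mark either motif, read on either strand.
Wnt9a, chr11:59306680-59306979, plus strand: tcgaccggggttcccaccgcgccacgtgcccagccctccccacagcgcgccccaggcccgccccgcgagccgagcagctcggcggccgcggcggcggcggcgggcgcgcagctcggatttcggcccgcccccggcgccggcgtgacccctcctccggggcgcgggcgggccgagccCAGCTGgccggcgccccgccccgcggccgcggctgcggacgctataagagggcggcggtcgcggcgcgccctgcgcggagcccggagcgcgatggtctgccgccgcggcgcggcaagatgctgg
Wnt11, chr7:98834862-98835161, plus strand: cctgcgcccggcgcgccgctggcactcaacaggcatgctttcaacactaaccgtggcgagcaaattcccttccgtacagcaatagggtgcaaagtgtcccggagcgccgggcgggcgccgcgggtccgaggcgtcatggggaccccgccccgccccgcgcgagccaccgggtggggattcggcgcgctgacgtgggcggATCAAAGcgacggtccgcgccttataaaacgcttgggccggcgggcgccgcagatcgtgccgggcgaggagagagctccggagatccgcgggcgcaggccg
Wnt6, chr1:74771642-74771941, plus strand: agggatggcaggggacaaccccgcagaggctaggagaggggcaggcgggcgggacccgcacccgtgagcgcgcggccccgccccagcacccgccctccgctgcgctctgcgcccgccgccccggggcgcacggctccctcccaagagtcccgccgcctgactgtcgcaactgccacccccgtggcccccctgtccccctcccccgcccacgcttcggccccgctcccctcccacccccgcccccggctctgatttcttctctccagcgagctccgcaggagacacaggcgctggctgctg
Wnt5b, chr6:119449337-119449636, minus strand: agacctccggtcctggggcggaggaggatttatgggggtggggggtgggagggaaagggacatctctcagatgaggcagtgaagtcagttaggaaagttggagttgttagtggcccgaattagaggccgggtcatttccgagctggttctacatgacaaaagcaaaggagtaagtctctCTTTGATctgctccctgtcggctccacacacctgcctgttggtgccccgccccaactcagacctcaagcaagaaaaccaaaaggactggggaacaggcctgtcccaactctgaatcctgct
Wnt5b, chr6:119544298-119544597, minus strand: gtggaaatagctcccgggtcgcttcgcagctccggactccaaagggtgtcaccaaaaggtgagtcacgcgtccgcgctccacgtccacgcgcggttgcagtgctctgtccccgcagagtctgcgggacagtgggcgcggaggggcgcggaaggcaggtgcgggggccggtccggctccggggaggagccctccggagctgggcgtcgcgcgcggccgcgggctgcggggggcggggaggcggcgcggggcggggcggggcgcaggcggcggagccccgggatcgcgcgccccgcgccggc
The match begins 74 bases before the start in Wnt9a, 51 in Wnt11 and 71 in the Wnt5b window from 119449337. The outermost Wnt5b window held 47 CpG dinucleotides and the inner one shown 7, against a median of 7 over all windows. Counts per gene do not say which start was used. A match is a description of these letters, present here in ligands called lower (Wnt9a, Wnt11) and in a ligand called higher (Wnt5b).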

How the data were processed

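Poly(A) RNA of 6 C2C12 libraries was read in pairs of 150 bp, per the labels' protocols. Trimmomatic 0.36, featureCounts of Subread 1.5.2, DESeq2 and build GRCm38 are named in the submitters' processing notes. Aligner, annotation release, strand setting and the version of DESeq2 were not given in the sources used here. Each deposited signal value is a gene count that the authors divided by 1 size factor per library. The authors' own log2 fold change, p-value and adjusted p-value stand beside it, per the file headers. Divided by the value of 1 read (0.829 to 1.26 normalised counts), 100% of the values in each library were whole within 0.01 reads, which gave the reads back. Of 16854 genes, 16806 were found in GENCODE M21 (GRCm38), which gave positions and exon lengths.

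The main test was limma 3.58.1 (R 4.3.3) with a mean-variance trend on log2(value + 1), two-sided, with no block, for genes that reached a value of 10 in 3 or more libraries. Fold changes on that scale understate the change of low genes. Groups and replicate numbers came from the sample titles. The limma procedure was tested on simulated reads with the spread of the control libraries, few genes changed and no outlying library. That test does not cover data with a library like the third knockdown library. Alternatives were other filters, pseudocounts, TMM scaling, a block for the replicate number, a stricter threshold, leaving out each library, and count tests on the recovered reads with DESeq2 1.42.0 and edgeR 4.0.16, which called 7344 genes. edgeR without the third knockdown library was added after seeing the data. Chi-square per gene between libraries of a group was 3.85 or more, where 1 is sampling noise, so none was counted as a duplicate.

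Genes named are the ligands found, Adamtsl2, up to 3 per direction of each pathway list by smallest adjusted p, Axin2, Lef1, Ctnnb1, Porcn and Wls, and the 3 genes most like Wnt10a, which had both the highest control mean and the largest fall. The rule also takes the most abundant marker genes, but marker lists are given here by their counts and sums, and the ligands' neighbours were added by position after values had been seen. The members and lists were chosen with earlier results of these data known.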

Additional observations from a re-analysis of the deposited data

How the results depend on the processing

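Wnt10a, Wnt6, Wnt11, Wnt9a and Wnt5b kept their direction and their call under every alternative in which they were tested, and Wnt2b stayed short of the threshold in all 16; Wnt11 was not tested at a minimum of 50. Wnt4 passed in 5 of 16 alternatives and Wnt10b in 3 of 16, always as higher, and all 3 for Wnt10b are DESeq2 or leave out the third knockdown library. No ligand reversed. The count of higher ligands, 1 as reported, was 2 with edgeR, 3 with DESeq2, 3 with edgeR without the third knockdown library, and 1 to 3 with each library left out (3 without the third knockdown library and 2 without the first). The count of lower ligands was 4 with each library left out, and 3 at a minimum of 50. Higher pathway genes numbered 34, with 28 to 54 when each library was left out (54 without the third knockdown library) and 55 with edgeR without it. Genes called higher and lower over the whole table, 3519 and 3823, became 2283 and 2545 at an adjusted p of 0.01, 6489 and 6459 with edgeR without the third knockdown library, and 2443 to 6269 and 2648 to 6485 with each library left out, the highest without the third knockdown library. The cause of these differences was not tested. The median log2 change of all genes was 0.01 with TMM scaling. Using the longest protein-coding transcript in place of all exons moved the per-kb levels of Wnt2b, of Wnt5b in the knockdown and of Wnt10b in control by more than 1 SD, and left the order of the 8 ligands in each group as it was.

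Libraries with equal replicate numbers did not all deviate together (correlations of deviations of 0.02, 0.10 and 0.14 for numbers 1, 2 and 3), so the numbers are not taken as pairs. With a replicate block 3010 genes were called higher and 3301 lower, the ligand counts were 1 and 4, and the pathway counts were 30 and 30. Depth limits Wnt6 and Wnt11 in the knockdown (22 and 23 reads in all) and Wnt16 in control (4 reads).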
